A study of Mus musculus with 8 samples.

Results

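The cyclin-dependent kinase (CDK) inhibitors and the p53 and Rb brakes of the cell cycle were examined as a set of 10 genes, *Cdkn1a*, *Cdkn1b*, *Cdkn1c*, *Cdkn2a*, *Cdkn2b*, *Cdkn2c*, *Cdkn2d*, *Trp53*, *Mdm2* and *Rb1*, in thymic epithelial cells (TECs) of the embryonic mouse. The 10 genes were chosen by their symbols from the 55450 genes of the deposited count table, and each symbol matched 1 gene. The set was put together with earlier results of these same libraries known, in which *Cdkn2a* already stood among the largest differences, so that the values of *Cdkn2a* are given here as a description with no test and the calls of the other members are not independent evidence of their direction. All 10 members passed the filter on low counts, but *Cdkn2a* could pass it only through the population in which it was high.

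RNA-sequencing was carried out on 3 populations of CD45-EpCAM+ TECs sorted from embryonic day 17 (E17) embryos. All embryos carried both a tandem dimer Tomato reporter knocked into the *Ccl21a* locus, which encodes the thymocyte-attracting chemokine CCL21, and a RANK-Venus transgene, which reports *Tnfrsf11a*, the gene of the cytokine receptor RANK. CCL21+RANK- cells were tdTomato+Venus- (3 libraries), CCL21-RANK+ cells were tdTomato-Venus+ (3 libraries) and CCL21-RANK- cells were negative for both reporters (2 libraries). The study describes its replicates as biological, but the sources used here do not say whether the libraries of a population came from separate embryos or from pools, and p-values measure only the spread between these libraries. The total of expected counts ranged from 42751858 to 71625319 per library.

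CDK inhibitors hold back the kinases that drive a cell from G1 into S phase. The Cip/Kip inhibitors p21, p27 and p57 (*Cdkn1a*, *Cdkn1b* and *Cdkn1c*) bind a broad range of cyclin-CDK complexes, whereas the Ink4 inhibitors (*Cdkn2a* to *Cdkn2d*) bind CDK4 and CDK6 and keep them from D-type cyclins. Unphosphorylated Rb holds E2F transcription factors in check until CDKs phosphorylate it, and p53, whose level is kept low by the ubiquitin ligase Mdm2, switches on *Cdkn1a* and other genes under stress. In the thymus medulla, Aire-expressing epithelial cells are known as largely postmitotic cells that arise from cycling precursors. In the GRCm38 genome the Cip/Kip genes lie at chr17:29090976-29100727 (*Cdkn1a*), chr6:134920401-134925513 (*Cdkn1b*) and chr7:143458339-143461050 (*Cdkn1c*), and the Ink4 genes outside the *Cdkn2a* locus at chr4:109660876-109667189 (*Cdkn2c*) and chr9:21288410-21291407 (*Cdkn2d*). *Trp53* lies at chr11:69580359-69591873, *Mdm2* at chr10:117688875-117710758 and *Rb1* at chr14:73183673-73325822.

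The sorted populations carried the transcripts of their reporters. *Tnfrsf11a* was measured at 93.1 to 111 RPKM (reads per kilobase of exon, scaled to library total) in CCL21-RANK+, 8.78 to 10.3 in CCL21+RANK- and 2.26 to 2.62 in CCL21-RANK- libraries. *Ccl21a* was at 305 to 561 RPKM in CCL21+RANK- and at 6.89 and 8.88 in CCL21-RANK- libraries, but CCL21-RANK+ libraries still held 78.2 to 152 RPKM. *Aire* was at 94.1 to 131 RPKM in CCL21-RANK+ libraries and below 1 RPKM in the other 5. The epithelial markers *Epcam* (49.5 RPKM or more) and *Foxn1* (50.7 RPKM or more) were present in every library.

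Markers of other cell types also differed between the populations. The 12 haematopoietic markers summed to 74.3, 23.7 and 34.0 RPKM in CCL21-RANK+ replicates 1 to 3, against 4.18 to 10.4 in CCL21+RANK- and 2.91 and 3.42 in CCL21-RANK- libraries, and *Lyz2*, a lysozyme gene of myeloid cells, was the most abundant of them (52.3, 14.7 and 17.8 RPKM in CCL21-RANK+ libraries). *Ptprc*, which encodes CD45, stayed at 0.576 RPKM or less in every library. The 9 mesenchymal markers summed to 52.9, 27.2 and 33.1 RPKM in CCL21-RANK+ libraries and to at most 4.36 elsewhere, led by the collagen gene *Col1a1* (24.01, 7.43 and 15.4 RPKM), whereas *Pdgfra*, *Prrx1*, *Twist1* and *Col3a1* were at 1.03 RPKM or less in those 3 libraries. Endothelial markers summed to 1.90 to 4.25 RPKM in CCL21-RANK+ libraries and to at most 0.467 elsewhere. Parathyroid markers went the other way, with *Pth*, the parathyroid hormone gene, at 3001, 848 and 906 RPKM in CCL21+RANK- replicates 1 to 3 and at most 12.4 RPKM in the other libraries. Whether other cells or the TECs themselves held these transcripts was not tested, nor was the part of any other cells in the levels of the inhibitors.

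CCL21-RANK+ replicate 1 stood apart from replicates 2 and 3 of its population. Its haematopoietic and mesenchymal sums were the highest of all libraries, and its 7 CDK inhibitors summed to 397 RPKM against 141 and 185. Its 20 S and G2/M genes summed to 298 RPKM, below the 412 and 384 of replicates 2 and 3.

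Apart from *Cdkn2a*, CCL21-RANK+ TECs held more transcript of 5 of the 9 genes, *Cdkn1a*, *Cdkn1c*, *Cdkn2b*, *Cdkn2c* and *Rb1*, in each of 2 comparisons. A gene was called when edgeR's quasi-likelihood test gave a Benjamini-Hochberg adjusted p under 0.05, the fold was over 1.5 and the mean level in the higher population was over 1 RPKM. Against CCL21+RANK- TECs, 5 of these 9 members were called higher and 0 lower, where 15.4% of all 21451 genes tested were called higher and 15.4% lower. Against CCL21-RANK- TECs, 5 were called higher and 0 lower, where 14.4% of all genes were called higher and 15.1% lower. Between CCL21+RANK- and CCL21-RANK- TECs, edgeR called 0 of the 9, as did DESeq2, where 4.35% of all genes were called higher and 3.66% lower in CCL21+RANK- TECs, and 3 had an unadjusted p under 0.05 (*Cdkn2b* higher, and *Cdkn1c* and *Trp53* lower). The median log2 fold change of the 9 members was 0.73, 0.62 and -0.03 in these 3 comparisons, beside 0.11, 0.06 and 0.00 over all genes tested. Left out in turn, CCL21-RANK- replicates 1 and 2 brought the 5 members of the second comparison to 2 (*Cdkn1a* and *Cdkn2b*) and 3 (those and *Cdkn2c*), and CCL21-RANK+ replicate 1 added *Cdkn1c* (lower) to the third. The first had 4 without CCL21-RANK+ replicate 2 (*Cdkn2c* lost) and 6 without CCL21+RANK- replicate 2 (*Trp53* added). Without CCL21-RANK+ replicate 1, *Rb1* was lost from the first and second comparisons, and *Trp53* was added to the first. The comparisons share libraries, so that one is not a repeat of another. In bulk libraries, more cells with a transcript and more transcript per cell cannot be told apart.

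**Figure D1:**
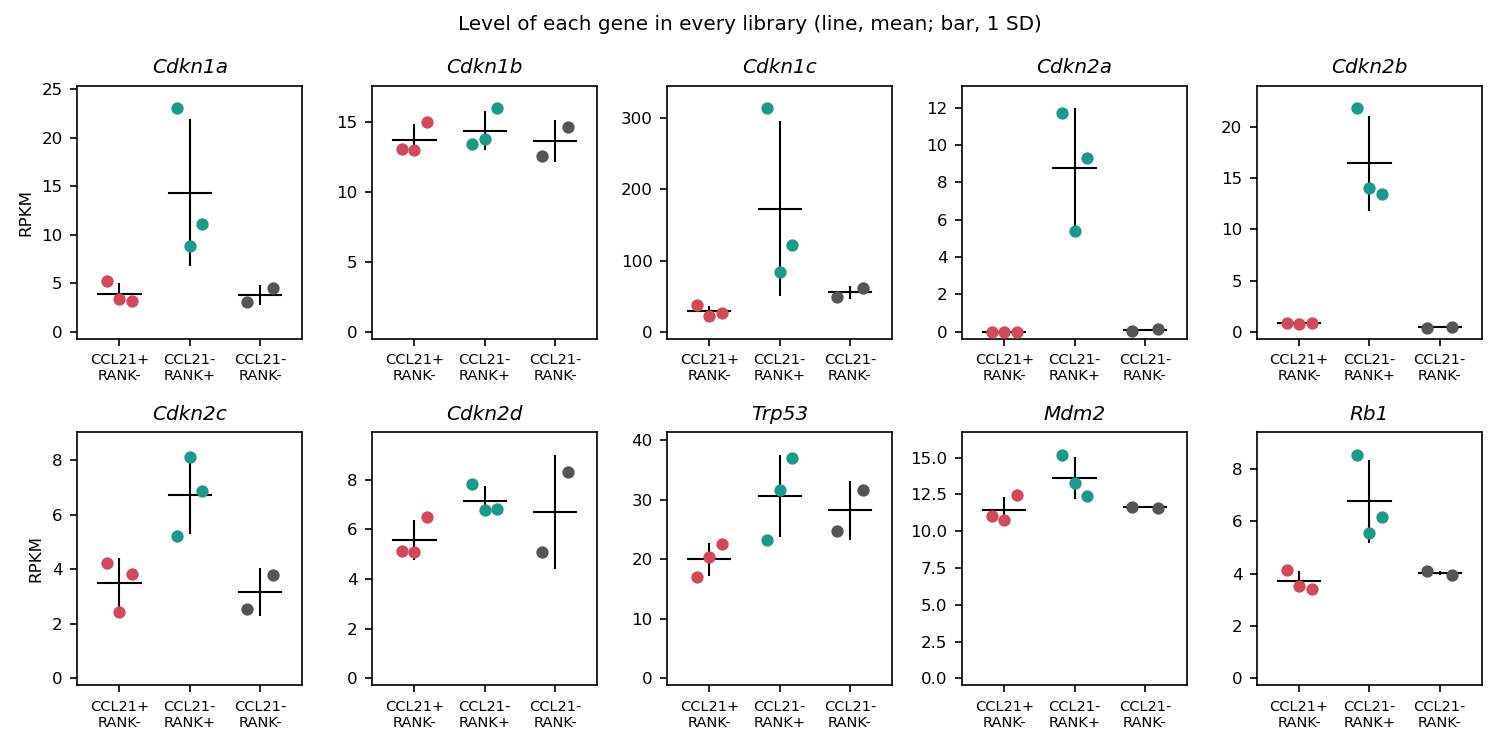
Level of each of the 10 genes in RPKM (vertical axis, linear from 0) in every library of CCL21+RANK- (n = 3), CCL21-RANK+ (n = 3) and CCL21-RANK- (n = 2) TECs. Points are libraries, horizontal lines are means and vertical bars are 1 SD, and the CCL21-RANK+ points of *Cdkn1a*, *Cdkn1c*, *Cdkn2a*, *Cdkn2b*, *Cdkn2c* and *Rb1* lie above all other points while those of *Cdkn1b* overlap with both other populations.

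**Figure D2:**
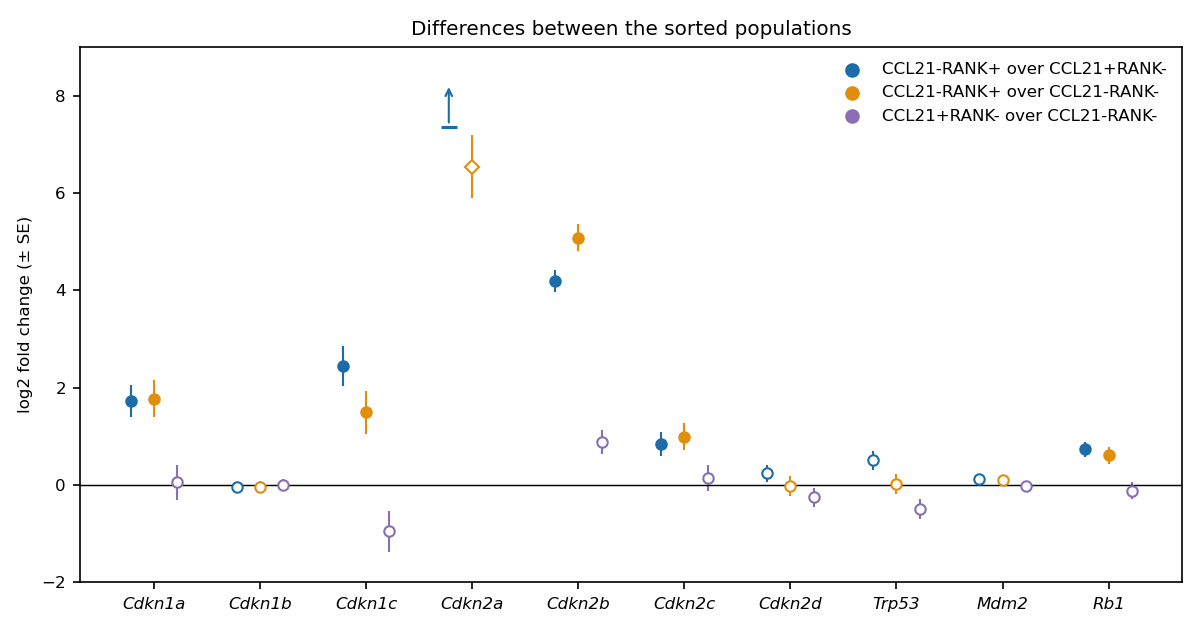
log2 fold change (vertical axis) of each gene in the 3 comparisons, from edgeR, with bars of 1 SE. Filled circles were called and open circles were not, while *Cdkn2a*, given with no test, has an open diamond over CCL21-RANK- TECs, a mark with an arrow at 7.36 for a lower bound against CCL21+RANK- libraries with 0 counts, and no mark between the RANK- populations.

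Among the Ink4 inhibitors, *Cdkn2a* separated the populations almost completely. It encodes p16Ink4a, which binds CDK4 and CDK6, and, from another first exon, p19Arf, which inhibits Mdm2, and counts per gene cannot tell the 2 products apart. It had 785, 318 and 465 counts in CCL21-RANK+ replicates 1 to 3, 0 counts in all 3 CCL21+RANK- libraries, and 3 and 11 counts in the CCL21-RANK- libraries. In RPKM these were 11.7, 5.41 and 9.28 (8.79 ± 3.17, SD, n = 3) in CCL21-RANK+ and 0.0379 and 0.131 (0.0845 ± 0.0658, SD, n = 2) in CCL21-RANK- TECs. Every CCL21-RANK+ library was far above every other library. A floor of 3 counts per library corresponds to between 0.0429 and 0.0556 RPKM among the CCL21+RANK- libraries. Against the mean of that floor, the mean of *Cdkn2a* in CCL21-RANK+ TECs was at least 165-fold higher, and the lowest CCL21-RANK+ library 107-fold higher. Over CCL21-RANK- TECs its log2 fold change was 6.54 ± 0.64 (SE), with 5.98 when CCL21-RANK- replicate 1 was left out and 7.58 when replicate 2 was.

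*Cdkn2b*, the neighbour of *Cdkn2a*, encodes p15Ink4b, an inhibitor known as a target of TGF-beta signals. It was at 21.8, 14.03 and 13.5 RPKM in CCL21-RANK+ replicates 1 to 3, at 0.856, 0.751 and 0.848 RPKM in CCL21+RANK- replicates 1 to 3, and at 0.395 and 0.492 RPKM in CCL21-RANK- replicates 1 and 2. The 3 populations did not overlap, with CCL21-RANK+ far above and CCL21-RANK- lowest. *Cdkn2b* was 18.3-fold higher in CCL21-RANK+ TECs relative to CCL21+RANK- TECs (log2 fold change 4.198 ± 0.23, SE; adjusted p = 9.27e-07, edgeR's quasi-likelihood test) and 33.9-fold higher than in CCL21-RANK- TECs (5.08 ± 0.28; adjusted p = 1.30e-06). The difference between the RANK- populations was 0.89 ± 0.25 on the log2 scale (adjusted p = 0.0509 by edgeR, 0.0271 by DESeq2), below 1 RPKM in both. In CCL21-RANK+ replicates 1 to 3, *Cdkn2b* was 1.87, 2.59 and 1.46 times as abundant as *Cdkn2a* per length.

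Both genes lie on the minus strand of chromosome 4 of the GRCm38 genome (*Cdkn2a* at chr4:89274471-89294653, *Cdkn2b* at chr4:89306299-89311039), 11646 bases apart. The nearest protein-coding genes on either side, named after their values were seen, did not share this pattern. *Mtap*, a methionine salvage enzyme gene 93390 bases from *Cdkn2a*, was at 3.96 to 5.84 RPKM in CCL21-RANK+ libraries, 3.32 to 4.88 in CCL21+RANK- and 5.64 and 7.68 in CCL21-RANK- libraries. Differences on the log2 scale were 0.14 ± 0.20 and -0.48 ± 0.22 (adjusted p = 0.598 and 0.107, edgeR). *Dmrta1*, 368397 bases beyond *Cdkn2b*, was at 1.37 to 1.72 RPKM in CCL21-RANK+ and at 0.803 to 1.97 RPKM in the other libraries. The *Mtap* and *Dmrta1* ranges of CCL21-RANK+ libraries overlapped with those of CCL21+RANK- libraries.

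The start regions of these 2 genes are shown because they had the largest differences of the set. They are RefSeq promoters of GRCm38.p6, 250 bases before to 50 after each start, minus strand, 5′ to 3′, with capitals at matches on either strand to the E2F letters TTTGGCGC, TTTCGCGC or TTTCCCGC, the Sp1 letters GGGCGG, or the p53 half-site letters GGGCATG. The first is the distal start of *Cdkn2a* (chr4:89294570-89294869), from which p19Arf is known to arise, the second its proximal start (chr4:89282143-89282442), from which p16Ink4a is known to arise, and the third the start of *Cdkn2b* (chr4:89310983-89311282).
Cdkn2a distal start: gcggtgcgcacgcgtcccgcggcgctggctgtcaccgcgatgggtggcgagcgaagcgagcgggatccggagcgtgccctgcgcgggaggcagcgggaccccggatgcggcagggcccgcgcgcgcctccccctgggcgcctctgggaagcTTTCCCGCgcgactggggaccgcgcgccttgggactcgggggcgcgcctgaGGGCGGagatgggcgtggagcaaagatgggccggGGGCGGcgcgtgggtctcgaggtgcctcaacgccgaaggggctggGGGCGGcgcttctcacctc
Cdkn2a proximal start: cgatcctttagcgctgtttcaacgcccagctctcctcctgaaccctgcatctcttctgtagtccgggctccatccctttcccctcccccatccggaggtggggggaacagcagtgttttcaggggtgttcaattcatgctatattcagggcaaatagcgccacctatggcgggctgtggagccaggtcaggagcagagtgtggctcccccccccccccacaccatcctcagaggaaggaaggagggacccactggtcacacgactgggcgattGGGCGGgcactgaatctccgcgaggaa
Cdkn2b start: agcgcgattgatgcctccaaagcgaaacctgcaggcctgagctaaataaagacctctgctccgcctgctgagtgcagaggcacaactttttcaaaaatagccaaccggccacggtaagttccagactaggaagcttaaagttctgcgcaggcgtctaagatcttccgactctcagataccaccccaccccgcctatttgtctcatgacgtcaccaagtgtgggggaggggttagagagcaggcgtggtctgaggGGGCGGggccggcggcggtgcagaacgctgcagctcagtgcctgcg

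The distal *Cdkn2a* start was the only one of 11 promoters found for 8 members (*Cdkn1c* and *Rb1* had none in the table) with a match to any of the E2F letters, TTTCCCGC, which 1.07% of all 32851 promoters hold. It also held 3 matches to GGGCGG, where the proximal start and *Cdkn2b* each held 1. GGGCGG was found in 8 of the 11 promoters and in 35.7% of all promoters, TTTGGCGC and TTTCGCGC in 0 of 11 and in 0.514% and 0.323% of all, and GGGCATG in 0 of 11 and 3.76% of all. The base composition was 77.0% G and C in the distal start, 60.3% in the proximal start and 57.7% at *Cdkn2b*, beside a median of 52.7%. These are matches of letters in a window, not sites of binding.

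Of the other Ink4 genes, *Cdkn2c*, which encodes p18Ink4c, was called higher in CCL21-RANK+ TECs in both comparisons and *Cdkn2d*, which encodes p19Ink4d, was called in none. *Cdkn2c* was at 5.22, 8.13 and 6.87 RPKM in CCL21-RANK+ replicates 1 to 3, 4.22, 2.44 and 3.82 RPKM in CCL21+RANK- replicates 1 to 3, and 2.54 and 3.79 RPKM in CCL21-RANK- replicates 1 and 2. CCL21-RANK+ libraries were all above the others, and *Cdkn2c* was 1.80 times its level in CCL21+RANK- TECs (log2 fold change 0.85 ± 0.25, SE; adjusted p = 0.0153, edgeR) and 1.99-fold higher than in CCL21-RANK- TECs (0.99 ± 0.28; adjusted p = 0.0155). Without CCL21-RANK+ replicate 2 the first adjusted p was 0.0600, and without CCL21-RANK- replicate 1 the second was 0.136. *Cdkn2d* ranged from 6.77 to 7.84 RPKM in CCL21-RANK+, from 5.10 to 6.51 in CCL21+RANK- and from 5.08 to 8.33 in CCL21-RANK- libraries. Its log2 fold changes of 0.24 ± 0.18 and -0.02 ± 0.20 did not pass the test (adjusted p = 0.301 and 0.958, edgeR).

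Among the Cip/Kip inhibitors, *Cdkn1c* and *Cdkn1a* were higher in CCL21-RANK+ TECs and *Cdkn1b* did not pass the test in any comparison. *Cdkn1c*, an imprinted gene expressed from the maternal allele that encodes p57, was the most abundant inhibitor per length in every library. It was at 314, 84.1 and 122 RPKM in CCL21-RANK+ replicates 1 to 3, at 37.1, 22.6 and 26.1 RPKM in CCL21+RANK- replicates 1 to 3, and at 49.3 and 62.0 RPKM in CCL21-RANK- replicates 1 and 2. The populations did not overlap, but replicate 1 was far above the other CCL21-RANK+ libraries.

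*Cdkn1c* was 5.45-fold higher in CCL21-RANK+ TECs relative to CCL21+RANK- TECs (log2 fold change 2.45 ± 0.40, SE; adjusted p = 0.000683, edgeR's quasi-likelihood test) and 2.81-fold higher than in CCL21-RANK- TECs (1.49 ± 0.45; adjusted p = 0.0201). Without CCL21-RANK+ replicate 1, these log2 fold changes were 1.77 and 0.82, and without CCL21-RANK- replicate 1 or 2 the second did not pass the test (adjusted p = 0.115 and 0.0851). CCL21+RANK- libraries were all below CCL21-RANK- libraries, with a log2 fold change of -0.95 ± 0.42 (adjusted p = 0.194). That difference passed the test when only the 5 RANK- libraries were fitted (adjusted p = 0.00858) and when CCL21-RANK+ replicate 1 was left out (adjusted p = 0.0138). An annotated antisense gene, *Gm44732*, shares 625 exonic bases with *Cdkn1c* and had 164, 30 and 44 counts in CCL21-RANK+ replicates 1 to 3 and at most 28 elsewhere, beside 2120 to 36661 counts of *Cdkn1c*.

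*Cdkn1a*, which encodes p21 and is the classical target of p53, was at 23.1, 8.87 and 11.2 RPKM in CCL21-RANK+ replicates 1 to 3, at 5.24, 3.35 and 3.19 RPKM in CCL21+RANK- replicates 1 to 3, and at 3.11 and 4.54 RPKM in CCL21-RANK- replicates 1 and 2. The RANK- populations overlapped, and all CCL21-RANK+ libraries were above them, replicate 1 most. *Cdkn1a* was 3.30 times its level in CCL21+RANK- TECs (log2 fold change 1.72 ± 0.32, SE; adjusted p = 0.00155, edgeR) and 3.43-fold higher than in CCL21-RANK- TECs (1.78 ± 0.38; adjusted p = 0.00349). Without CCL21-RANK+ replicate 1, the log2 fold changes were 1.27 and 1.33. The unclassified gene *AC167363.2*, which shares 273 exonic bases with *Cdkn1a* on the other strand, had at most 8 counts in any library.

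*Cdkn1b*, which encodes p27, an inhibitor regulated to a large degree through its protein's decay, was at 13.4, 13.8 and 16.0 RPKM in CCL21-RANK+ replicates 1 to 3, at 13.1, 13.0 and 15.0 RPKM in CCL21+RANK- replicates 1 to 3, and at 12.6 and 14.7 RPKM in CCL21-RANK- replicates 1 and 2. All 3 populations overlapped. Its log2 fold changes were -0.05 ± 0.11, -0.04 ± 0.12 and 0.01 ± 0.12 (adjusted p = 0.743, 0.831 and 1.00, edgeR), and the sign of the first 2 turned with the scaling of the libraries.

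Per length, the inhibitor pool was largest in CCL21-RANK+ TECs and *Cdkn1c* was its main part in all 3 populations. The 7 inhibitors summed to 397, 141 and 185 RPKM in CCL21-RANK+ replicates 1 to 3, to 65.6, 47.2 and 55.5 RPKM in CCL21+RANK- replicates 1 to 3, and to 73.0 and 93.9 RPKM in CCL21-RANK- replicates 1 and 2. *Cdkn1c* made up 59.6% to 79.1% of that sum in CCL21-RANK+, 47.0% to 56.5% in CCL21+RANK- and 66.0% and 67.5% in CCL21-RANK- libraries. *Cdkn1b* took 3.38% to 9.76% of the sum in CCL21-RANK+ libraries and 15.6% to 27.5% in the other 5. *Cdkn2a* and *Cdkn2b* together with the other Ink4 genes summed to 34.3 to 46.6 RPKM in CCL21-RANK+ and to 8.05 to 12.7 RPKM in the other 5 libraries. The Ink4 share of the sum overlapped between populations, at 11.7% to 24.3% in CCL21-RANK+, 15.6% to 20.2% in CCL21+RANK- and 11.0% and 13.6% in CCL21-RANK- libraries.

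**Figure D3:**
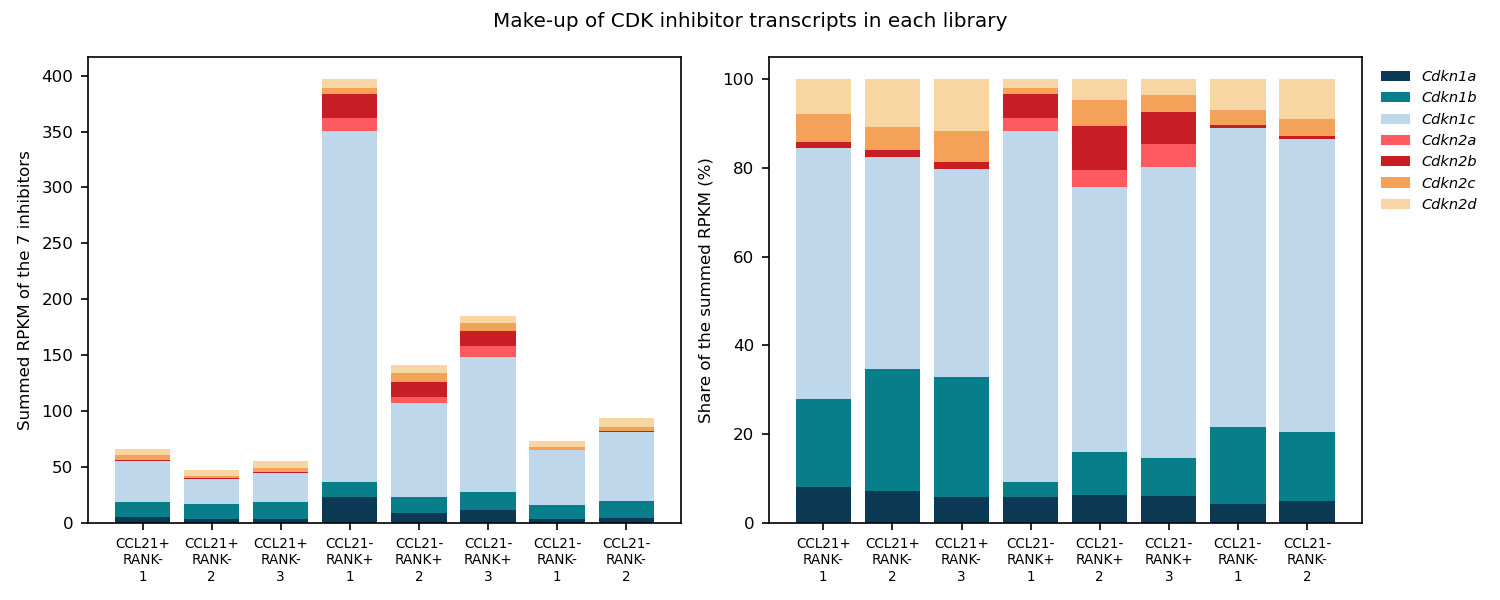
Summed RPKM of the 7 CDK inhibitor genes in each of the 8 libraries (left, stacked bars from 0) and the share of each gene in that sum in percent (right). The 3 CCL21-RANK+ bars at 141 to 397 RPKM are the highest, *Cdkn1c* is the largest segment in every library, and segments of *Cdkn2a* and *Cdkn2b* are visible mainly in CCL21-RANK+ libraries.

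Neither the p53 gene nor that of its inhibitor Mdm2 was called in any of the 3 comparisons. *Trp53* was at 23.3, 31.6 and 37.0 RPKM in CCL21-RANK+ replicates 1 to 3, at 16.99, 20.5 and 22.5 RPKM in CCL21+RANK- replicates 1 to 3, and at 24.7 and 31.7 RPKM in CCL21-RANK- replicates 1 and 2. CCL21+RANK- libraries were all below the others, while CCL21-RANK+ and CCL21-RANK- libraries overlapped. The log2 fold change of CCL21-RANK+ over CCL21+RANK- TECs was 0.51 ± 0.19 (adjusted p = 0.0429, edgeR), a 1.42-fold difference that fell short of the fold required for a call, and its adjusted p lay between 0.00177 and 0.130 over 16 alternative settings. *Trp53* was called when CCL21+RANK- replicate 2 was left out, when CCL21-RANK+ replicate 1 was, when genes needed at least 10 counts in every library, and when an adjusted p under 0.05 alone made a call. Its adjusted p did not pass when any of the other 6 libraries was left out, nor when only the libraries compared were fitted (0.0536). Over CCL21-RANK- TECs the log2 fold change was 0.01 ± 0.21 (adjusted p = 0.960, edgeR), and between CCL21+RANK- and CCL21-RANK- TECs it was -0.49 ± 0.21 (adjusted p = 0.171). With a replicate block the difference between the RANK- populations was -0.59 (adjusted p = 0.0273, edgeR), and *Trp53* was called lower in CCL21+RANK- TECs. Of the 16 alternative settings, 13 gave an adjusted p that did not pass, and no other setting called *Trp53* in this comparison.

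*Mdm2*, which is both an inhibitor and a target of p53, ranged from 12.4 to 15.2 RPKM in CCL21-RANK+, from 10.7 to 12.5 in CCL21+RANK- and from 11.6 to 11.7 in CCL21-RANK- libraries. The fitted log2 fold changes were 0.13 ± 0.09, 0.10 ± 0.11 and -0.03 ± 0.11 (adjusted p = 0.264, 0.450 and 0.936, edgeR). Per length, *Mdm2* was 0.334 to 0.653 times as abundant as *Trp53* in CCL21-RANK+ libraries, a range that held the 0.525 to 0.651 of CCL21+RANK- and the 0.365 and 0.471 of CCL21-RANK- libraries.

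*Rb1* was at 8.54, 5.57 and 6.17 RPKM in CCL21-RANK+ replicates 1 to 3, at 4.16, 3.53 and 3.43 RPKM in CCL21+RANK- replicates 1 to 3, and at 4.09 and 3.96 RPKM in CCL21-RANK- replicates 1 and 2. All CCL21-RANK+ libraries were above all others, again with replicate 1 highest. *Rb1* was 1.66 times its level in CCL21+RANK- TECs (log2 fold change 0.73 ± 0.15, SE; adjusted p = 0.00297, edgeR) and 1.53-fold higher than in CCL21-RANK- TECs (0.62 ± 0.17; adjusted p = 0.0154). Without CCL21-RANK+ replicate 1 the log2 fold changes were 0.58 and 0.47, under the fold required for a call. Without CCL21-RANK- replicate 1 or 2 the second adjusted p was 0.0501 and 0.126. Exons of *Rb1* share 488 bases with *Rcbtb2* and 408 bases with *Lpar6* on the opposite strand. The counts of both were lower in every CCL21-RANK+ library (2202 to 2826 and 225 to 284) than in the other libraries (3539 or more and 530 or more).

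The genes most like 3 members in pattern were taken as those with the highest Pearson correlation of log2 CPM over the 8 libraries, among 7750 genes. They were *Adam17* (r = 0.989), *Emc4* (0.987) and *Pmvk* (0.986) for *Cdkn1a*, *Stk39* (0.991), *Tmem176a* (0.989) and *Ndufa4* (0.976) for *Cdkn1c*, and *Cpne2* (0.997), *Fscn1* (0.996) and *Galnt4* (0.995) for *Cdkn2a*. *Fscn1*, which encodes the actin-bundling protein fascin, was at 123 to 157 RPKM in CCL21-RANK+ and at 3.52 to 10.1 RPKM in the other libraries. *Tmem176a* carried the high value of CCL21-RANK+ replicate 1 that *Cdkn1c* had, with 107, 59.3 and 71.9 RPKM in replicates 1 to 3 and 26.2 to 52.0 RPKM elsewhere. The 8 points are 3 populations with shared scaling, so that these values are descriptions of likeness.

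Known targets of p53 were called in both directions. Of 28 target genes tested, 6 were called higher and 9 lower in CCL21-RANK+ TECs relative to CCL21+RANK- TECs, with a median log2 fold change of -0.01, and 6 higher and 10 lower than in CCL21-RANK- TECs, with a median of -0.21. These were 21.4% and 32.1% of the targets in the first comparison, beside 15.4% and 15.4% of all genes, and 21.4% and 35.7% in the second, beside 14.4% and 15.1%. By DESeq2 the split of the second comparison was 9 higher and 8 lower. Among those higher was *Pmaip1*, which encodes the BH3-only protein Noxa, at 28.9, 11.4 and 14.3 RPKM in CCL21-RANK+ replicates 1 to 3 and at most 0.454 RPKM elsewhere, with log2 fold changes of 6.23 ± 0.66 and 6.93 ± 0.82 (adjusted p = 3.95e-05 and 0.000101, edgeR). *Fas*, a death receptor gene, was at 10.5 to 15.9 RPKM in CCL21-RANK+, 1.24 to 2.10 in CCL21+RANK- and 0.324 and 0.379 in CCL21-RANK- libraries. *Ak1*, an adenylate kinase gene, was at 4.51 to 10.1 RPKM in CCL21-RANK+ libraries, at 4.13, 0.629 and 1.04 RPKM in CCL21+RANK- replicates 1 to 3, and at 0.114 and 0.0323 RPKM in CCL21-RANK- replicates 1 and 2. CCL21+RANK- replicate 1 came close to the lowest CCL21-RANK+ library.

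Among the p53 targets that were lower, *Sulf2*, a heparan sulfate sulfatase gene, was at 6.35 to 9.59 RPKM in CCL21-RANK+, 36.4 to 42.2 in CCL21+RANK- and 21.9 and 30.9 in CCL21-RANK- libraries. *Dram1*, a gene linked to autophagy, was at 4.13 to 6.16, 18.5 to 24.7, and 7.55 and 7.97 RPKM in the same order. Between the RANK- populations 4 targets were called higher and 1 lower in CCL21+RANK- TECs, *Dram1* among the former (log2 fold change 1.41 ± 0.21; adjusted p = 0.00253, edgeR) together with *Sulf2* (0.60 ± 0.17; adjusted p = 0.0479), *Fas* (2.28 ± 0.29; adjusted p = 0.00137) and *Ak1* (4.70 ± 0.94; adjusted p = 0.0120). The 4 and 1 were 14.3% and 3.57% of the targets, beside 4.35% and 3.66% of all genes, so that the lower share was near that of all genes. The 4 higher became 2, and the 1 lower became 0, when either CCL21-RANK- library or CCL21+RANK- replicate 1 was left out, and the 1 lower was also lost without CCL21+RANK- replicate 2 or 3 or CCL21-RANK+ replicate 3.

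Of 16 genes of the p53 family and its regulators, 3 were called higher and 3 lower in CCL21-RANK+ TECs relative to CCL21+RANK- TECs, and 2 higher and 2 lower than in CCL21-RANK- TECs. These shares, 18.8% each way and 12.5% each way, were near those of all genes (15.4% each way, and 14.4% and 15.1%), so that the counts say little about the list. *Sirt1*, which encodes a deacetylase known to act on p53 and to be a partner of Aire, was at 28.9, 22.4 and 27.7 RPKM in CCL21-RANK+ replicates 1 to 3 and at 3.28 to 4.51 RPKM in the other 5 libraries. Its log2 fold changes were 2.68 ± 0.15 and 2.54 ± 0.17 (adjusted p = 1.02e-06 and 3.27e-06, edgeR). *Cop1*, a ubiquitin ligase gene, was higher (10.7 to 11.3 RPKM against 4.05 to 4.97 elsewhere), and *Rchy1*, another ubiquitin ligase gene of p53, was lower (7.54 to 8.78 RPKM against 12.6 to 18.3). *Trp63*, the p53 relative that marks stem and progenitor cells of stratified and thymic epithelium, was at 13.7, 26.2 and 18.5 RPKM in CCL21-RANK+ replicates 1 to 3 and at 64.2 to 81.2 RPKM elsewhere, with log2 fold changes of -2.04 ± 0.23 and -1.84 ± 0.25 (adjusted p = 6.35e-05 and 0.000224). Between the RANK- populations, 0 of these genes were called higher (2 at an unadjusted p under 0.05 in edgeR and 0 by DESeq2) and 1 lower. These were 0% and 6.25% of the list, beside 4.35% and 3.66% of all genes. The 1 lower became 0 without either CCL21-RANK- library. *Trp63*, the most abundant gene of the list, was not called between these populations (0.20 ± 0.25; adjusted p = 0.692, edgeR).

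Downstream of Rb, 6 of 19 genes of pocket proteins, E2F factors and the DREAM complex were called higher and 2 lower in CCL21-RANK+ TECs relative to CCL21+RANK- TECs, and 5 higher and 3 lower than in CCL21-RANK- TECs. The higher shares were 31.6% and 26.3%, beside 15.4% and 14.4% of all genes, and the lower shares 10.5% and 15.8%, beside 15.4% and 15.1%. The activator *E2f2* was at 9.10, 6.56 and 9.01 RPKM in CCL21-RANK+ replicates 1 to 3 and at 1.21 to 1.49 RPKM in the other 5 libraries, with log2 fold changes of 2.53 ± 0.15 and 2.35 ± 0.17 (adjusted p = 1.36e-06 and 5.13e-06, edgeR). *E2f1* (5.45 to 6.77 RPKM), the E2F target and regulator *Mybl2* (4.79 to 6.42 RPKM) and the E2F partner *Tfdp1* (55.4 to 63.3 RPKM) were also called higher in both comparisons, whereas the other partner, *Tfdp2*, was called lower (2.21 to 2.67 RPKM against 5.87 to 6.71 elsewhere). Between the RANK- populations, 0 of these genes were called higher in CCL21+RANK- TECs (1 at an unadjusted p under 0.05 in edgeR and 0 by DESeq2) and 2 lower. These were the repressors *E2f7* (1.495 to 2.22 RPKM against 6.11 and 7.02; log2 fold change -1.89 ± 0.19, adjusted p = 0.000386) and *E2f8* (2.78 to 3.46 RPKM against 4.36 and 6.22; -0.72 ± 0.15, adjusted p = 0.0129). The shares between the RANK- populations, 0% higher and 10.5% lower, stood beside 4.35% and 3.66% of all genes. Without either CCL21-RANK- library the 5 higher in the second comparison became 3, and the 2 lower in the third became 1 without CCL21+RANK- replicate 2 or CCL21-RANK- replicate 2.

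The D-type cyclins, whose kinases the Ink4 proteins bind, were split. *Ccnd2* was at 121, 128 and 113 RPKM in CCL21-RANK+ replicates 1 to 3, 30.6, 19.3 and 25.5 RPKM in CCL21+RANK- replicates 1 to 3, and 45.0 and 49.7 RPKM in CCL21-RANK- replicates 1 and 2. On the log2 scale it differed by 2.15 ± 0.16 and 1.23 ± 0.18 (adjusted p = 4.11e-06 and 0.000345, edgeR). *Ccnd1* was higher too (10.3 to 15.0 RPKM against 0.885 to 3.16 elsewhere), while *Ccnd3* was lower (4.50 to 5.02 RPKM against 9.60 to 13.4). *Cdk4* was lower in both CCL21-RANK+ (46.5 to 62.9 RPKM) and CCL21+RANK- libraries (48.6 to 63.8) than in CCL21-RANK- libraries (81.7 and 103). Of the 9 CDK and cyclin genes, 5 were called higher and 1 lower in the first comparison, 4 higher and 2 lower in the second, and 1 higher and 5 lower between CCL21+RANK- and CCL21-RANK- TECs. The largest of these shares, 55.6% higher in the first, 44.4% higher in the second and 55.6% lower in the third, stood beside 15.4%, 14.4% and 3.66% of all genes. The other shares were 11.1% lower, 22.2% lower and 11.1% higher in the same order, beside 15.4%, 15.1% and 4.35% of all genes. The 5 lower in the third became 1 and 3 when CCL21-RANK- replicates 1 and 2 were left out in turn, and its 1 higher was lost in both and without CCL21+RANK- replicate 1.

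Most S and G2/M genes were lowest in the CCL21+RANK- population. Of 20 such genes, 17 were called higher and 0 lower in CCL21-RANK+ TECs relative to CCL21+RANK- TECs by edgeR and by DESeq2 (0 lower also at an unadjusted p under 0.05), with a median log2 fold change of 1.12. Against CCL21-RANK- TECs only 2 were called higher and 1 lower, with a median of 0.21, and CCL21+RANK- TECs had 16 called lower and 0 higher than CCL21-RANK- TECs (0 higher also by DESeq2 and at an unadjusted p under 0.05), with a median of -0.95. The first comparison had 85% called higher and 0% lower, beside 15.4% each way of all genes. The second had 10% and 5%, below the 14.4% and 15.1% of all genes. The third had 0% and 80%, beside 4.35% and 3.66%. Leaving out CCL21-RANK- replicates 1 and 2 in turn brought the 16 to 7 and 4, and leaving out CCL21-RANK+ replicate 1 brought the 2 higher to 5. Those 2 became 1 without CCL21-RANK+ replicate 2 or CCL21-RANK- replicate 1, and DESeq2 called 4. The genes summed to 298, 412 and 384 RPKM in CCL21-RANK+ replicates 1 to 3, 141, 127 and 156 RPKM in CCL21+RANK- replicates 1 to 3, and 248 and 308 RPKM in CCL21-RANK- replicates 1 and 2.

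*Cdk1*, the mitotic kinase gene, was at 7.81, 12.7 and 11.4 RPKM in CCL21-RANK+ replicates 1 to 3, at 1.60 to 2.02 RPKM in CCL21+RANK- and at 4.92 and 6.53 RPKM in CCL21-RANK- libraries. Its log2 fold changes were 2.41 ± 0.22, 0.79 ± 0.24 and -1.62 ± 0.23 in the 3 comparisons (adjusted p = 1.47e-05, 0.0196 and 0.00225, edgeR). *Rrm2*, a ribonucleotide reductase subunit, was the other gene called higher than in CCL21-RANK- TECs, at 22.8 to 30.9 against 10.1 and 13.5 RPKM. CCL21-RANK- libraries lay between the others in *Cdk1* but at the lowest level of all 3 populations in *Cdkn2b*. CCL21-RANK+ replicate 1, the library with the most *Cdkn1c*, had the least *Ccnb1* (10.4 against 20.4 and 20.1 RPKM), *Plk1* (18.4 against 35.9 and 34.9 RPKM) and *Top2a* (30.2 against 45.7 and 37.9 RPKM) of its population, though it had the most *Mki67* (18.7 against 9.41 and 9.58 RPKM), a proliferation marker named after its values were seen.

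**Figure D4:**
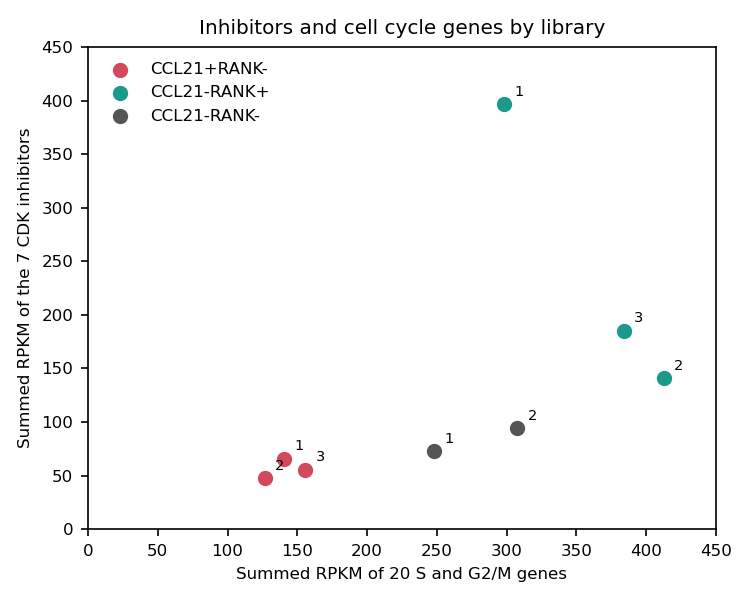
Summed RPKM of 20 S and G2/M genes (horizontal axis) and of the 7 CDK inhibitors (vertical axis) in each library, with replicate numbers beside the points. CCL21-RANK+ replicates 2 and 3 have the highest S and G2/M sums, CCL21-RANK+ replicate 1 has the highest inhibitor sum at 397 RPKM, and the CCL21-RANK- libraries lie right of the CCL21+RANK- libraries with inhibitor sums of 73.0 and 93.9 RPKM.

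Polycomb proteins are known to keep the *Cdkn2a* and *Cdkn2b* locus silent, and 16 of their genes and linked demethylases were tested. In CCL21-RANK+ TECs 3 were called higher and 6 lower than in CCL21+RANK- TECs, and 2 higher and 7 lower than in CCL21-RANK- TECs, with medians of -0.43 and -0.39. The lower shares were 37.5% and 43.8%, beside 15.4% and 15.1% of all genes, and the higher shares 18.8% and 12.5%, beside 15.4% and 14.4%. *Pcgf2*, which encodes a subunit of Polycomb repressive complex 1, was at 5.01, 6.18 and 5.98 RPKM in CCL21-RANK+ replicates 1 to 3 and at 17.2 to 23.5 RPKM elsewhere, with log2 fold changes of -1.96 ± 0.13 and -1.87 ± 0.14 (adjusted p = 2.67e-06 and 6.43e-06, edgeR). *Rnf2*, which encodes a ubiquitin ligase of the same complex, was also lower (4.45 to 5.40 against 7.81 to 10.2 RPKM). The methyltransferase gene *Ezh2* of Polycomb repressive complex 2 went the other way, at 8.90 to 10.9 RPKM in CCL21-RANK+, 2.49 to 3.14 in CCL21+RANK- and 4.51 and 4.56 in CCL21-RANK- libraries. Between the RANK- populations, 0 were called higher (1 at an unadjusted p under 0.05 in edgeR and 0 by DESeq2) and 1 lower (*Ezh2*). These were 0% and 6.25% of the list, beside 4.35% and 3.66% of all genes. Leaving out CCL21-RANK- replicate 1 brought the 2 higher in the second comparison to 1 and the 1 lower between the RANK- populations to 0.

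Of the regulators of the inhibitors' transcription or decay, 6 of 18 were called higher and 5 lower in CCL21-RANK+ TECs relative to CCL21+RANK- TECs, and 3 higher and 5 lower than in CCL21-RANK- TECs. The higher shares were 33.3%, beside 15.4% of all genes, and 16.7%, near the 14.4% of all genes, and the lower share was 27.8% in both, beside 15.4% and 15.1%. *Tbx3*, a T-box factor known as a repressor of p19Arf, was at 7.68, 4.83 and 4.92 RPKM in CCL21-RANK+ replicates 1 to 3 and at most 0.0492 RPKM elsewhere. Fitted log2 fold changes were 7.88 ± 0.52 and 7.76 ± 0.61 (adjusted p = 2.29e-06 and 7.59e-06, edgeR). *Foxo3*, a known activator of *Cdkn1b*, was at 12.1 to 17.5 RPKM in CCL21-RANK+ and at 55.9 to 93.6 RPKM in the other libraries, and *Smad3*, a TGF-beta effector known to act on *Cdkn2b* and *Cdkn1a*, was at 8.69 to 9.68 against 22.8 to 30.2 RPKM. *Cks1b*, a cofactor in the decay of p27, was higher in CCL21-RANK+ libraries than in CCL21+RANK- libraries (20.8 to 31.6 against 7.53 to 12.0 RPKM). Between CCL21+RANK- and CCL21-RANK- TECs 2 were called higher and 4 lower, among them *Ets1* (higher, 0.93 ± 0.12; adjusted p = 0.00130) and *Id1* (lower, -2.23 ± 0.30; adjusted p = 0.00168). The shares in this comparison were 11.1% higher and 22.2% lower, beside 4.35% and 3.66% of all genes. The 4 lower became 1 when either CCL21-RANK- library or CCL21+RANK- replicate 2 was left out, and 2 when CCL21+RANK- replicate 1 was. The 2 higher became 1 in each of these and without CCL21-RANK+ replicate 3.

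Of 11 genes of the imprinted region around *Cdkn1c*, 2 were called higher and 1 lower in CCL21-RANK+ TECs relative to CCL21+RANK- TECs, 3 higher and 2 lower than in CCL21-RANK- TECs, and 0 between the RANK- populations (3 at an unadjusted p under 0.05 in edgeR, and 2 by DESeq2). With 18.2% higher and 9.09% lower in the first comparison, beside 15.4% each way of all genes, and 27.3% and 18.2% in the second, beside 14.4% and 15.1%, so few genes say little about the region. In the third, 0% each way stood beside 4.35% and 3.66% of all genes. Without CCL21-RANK+ replicate 1 the counts in these comparisons were 1 higher and 3 lower, 1 higher and 3 lower, and 2 higher and 1 lower. The 3 higher of the second also became 1 without either CCL21-RANK- library or CCL21+RANK- replicate 2, the 2 higher of the first became 1 without CCL21+RANK- replicate 1 or 2, and its 1 lower became 2 without CCL21+RANK- replicate 1 or 3. Without CCL21-RANK+ replicate 3 the third had 1 lower. The potassium channel gene *Kcnq1*, whose intron holds the region's imprinting centre and which is named after its values were seen, was at 4.18, 1.47 and 1.94 RPKM in CCL21-RANK+ replicates 1 to 3 and at most 0.111 RPKM elsewhere. *Cd81* was lower in CCL21-RANK+ libraries (13.1 to 17.01 against 20.7 to 30.8 RPKM). The linked growth gene *Igf2* was at 35.3, 4.71 and 7.57 RPKM and *H19* at 62.1, 16.2 and 17.6 RPKM in CCL21-RANK+ replicates 1 to 3. In the other libraries *Igf2* lay between 2.33 and 9.27 RPKM and *H19* between 24.96 and 48.1 RPKM. Replicate 1 was the highest of all 8 libraries in both genes, while replicates 2 and 3 lay within the range of the RANK- libraries for *Igf2* and below it for *H19*.

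**Figure D5:**
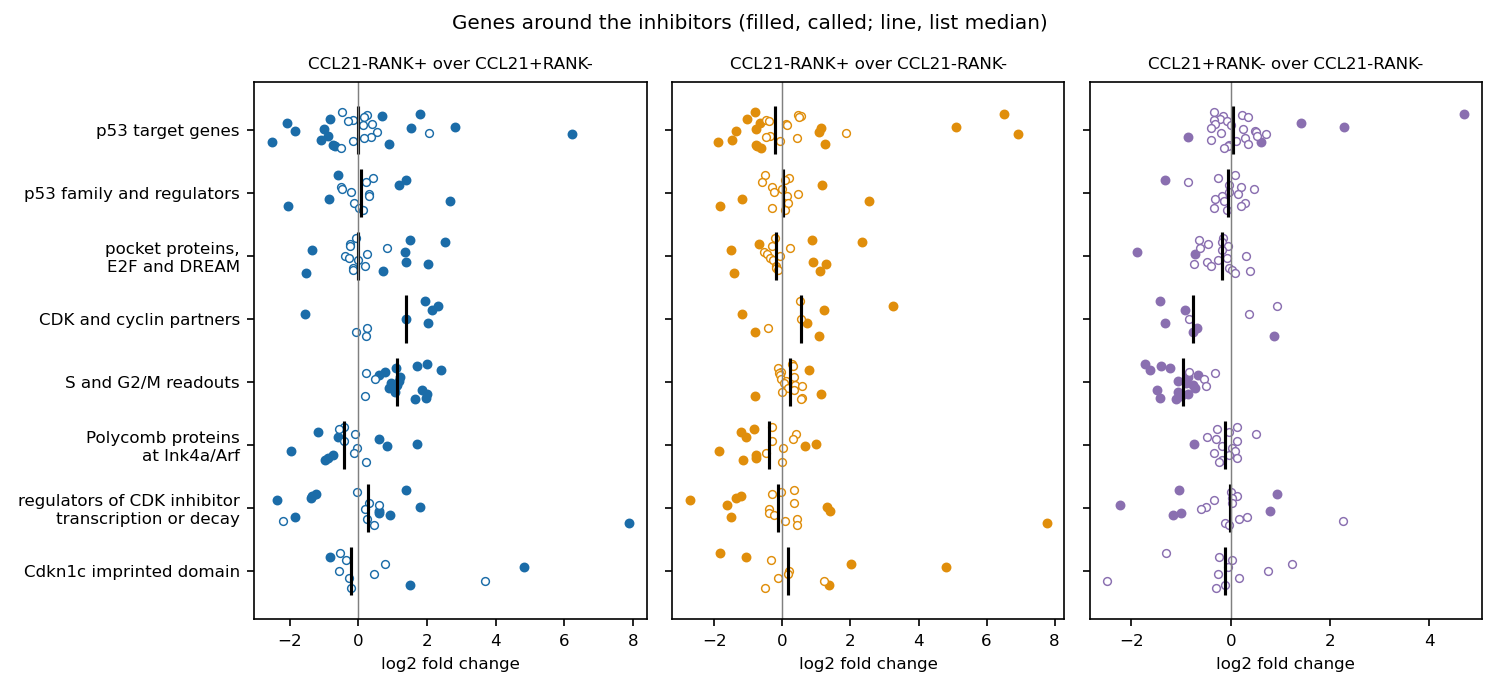
log2 fold change (horizontal axis) of each tested gene in 8 lists around the inhibitors (rows) in the 3 comparisons (panels). Filled points were called, open points were not, and black lines are list medians, which are 1.12 for S and G2/M genes in the first panel, 0.21 in the second and -0.95 in the third.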

How the data were processed

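RNA-sequencing was analysed for 8 libraries of 3 sorted TEC populations, grouped by the sample records. Values were the expected counts of each gene that the authors deposited in a single table, not normalized or filtered. RSEM estimates them and can divide a read between genes. The submitters' processing notes name bcl2fastq 2.20, Trimmomatic, STAR 2.5.1, RSEM 1.3.1 and the mm10 genome, and the study's methods name CLC Genomics Workbench for the analysis. Positions and exon lengths came from the GENCODE M21 annotation (GRCm38), in which all 55450 identifiers were found. The kit in the sample records marks strand, but the strand setting of the counting is not given in the sources used here.

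Counts were rounded, filtered by the default rule of edgeR 4.0.16 (R 4.3.3) and scaled by TMM. One model of 3 population means was fitted to all 8 libraries for edgeR's quasi-likelihood test, and p-values were adjusted by the Benjamini-Hochberg method over all 21451 genes tested. Each SE was the absolute log2 fold change divided by the root of the test's F. RPKM used library totals and summed exon length, so that it was not rescaled by TMM, and *Gm26917* and *Gm42418* took 8.36% to 23.2% of each total. No pair of replicates was as alike as sampling alone would make it (chi-square per gene 85.3 to 302). The code was tested on simulated data. Alternatives were DESeq2 1.42.0, other scalings, filters and thresholds, a replicate block and leaving out each library. Reads were counted without molecular identifiers, so that the floor of 3 counts covers counting error only.

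The members and all gene lists were chosen with earlier results of these data known. From each related list, up to 4 called genes per comparison with the largest absolute log2 fold change and a mean of at least 5 RPKM were eligible to be named, or the most abundant gene where none was called. One gene that this rule named is not reported here. Figures were drawn with matplotlib 3.10.9.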

Additional observations from a re-analysis of the deposited data

How the results depend on the processing

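Of the log2 fold changes of the 10 genes under the alternative settings, 405 kept their direction and side of the threshold, 19 lost and 12 gained significance, and 40 changed sign, all of them in differences that did not pass the test. *Cdkn2a* is counted in this tally but is read as no test. For 6 of the 19 losses the gene was *Cdkn2a*, between the RANK- populations. With DESeq2 size factors, upper-quartile scaling, no filter, at least 10 counts in every library and the DESeq2 test, *Cdkn1b* was at 0.038, 0.031, 0.00034, 0.089 and 0.038 for CCL21-RANK+ over CCL21+RANK-, and at 0.10, 0.081, 0.013, 0.17 and 0.10 over CCL21-RANK-, where *Cdkn2d* was at 0.13, 0.11, 0.037, 0.19 and 0.13. *Mdm2* in CCL21+RANK- over CCL21-RANK- was at 0.023, 0.0089, 0.038 and 0.023 in these settings other than no filter. Without *Gm26917* and *Gm42418*, a setting chosen after seeing the data, *Cdkn1b* and *Cdkn2d* over CCL21-RANK- were at 0.0014 and 0.027. The cause of these shifts was not tested.

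Leaving out 1 library, CCL21-RANK+ over CCL21+RANK- ranged from -0.099 to 0.0447 for *Cdkn1b*. CCL21-RANK+ over CCL21-RANK- ranged from -0.0798 to 0.0602 for *Cdkn1b*, -0.28 to 0.30 for *Cdkn2d* and -0.11 to 0.22 for *Trp53*. CCL21+RANK- over CCL21-RANK- ranged from -0.21 to 0.26 for *Cdkn1a*, -0.0289 to 0.0434 for *Cdkn1b*, -0.0553 to 0.37 for *Cdkn2c*, -0.51 to 0.0535 for *Cdkn2d* and -0.11 to 0.0482 for *Mdm2*.

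Of all genes, 6618, 6332 and 1720 were called in the 3 comparisons. An adjusted p under 0.05 alone gave 11516 and 10501 in the first 2, and an adjusted p under 0.01 with a fold over 2 gave 4314, 4054 and 673. The third count ranged from 657 to 2066 without 1 library (657 without CCL21-RANK- replicate 2, 772 without replicate 1). In the related lists, to which alternatives were applied after seeing the data, 75, 59 and 37 genes were called, 49, 37 and 12 under the stricter thresholds, and 13 to 44 in the third comparison without 1 library. Without 1 library, members called, counted here with *Cdkn2a*, ranged from 5 to 7, 3 to 6 and 0 to 1 in the 3 comparisons. Stricter thresholds left 3 in the second. Of the 9 other members in the first, they left *Cdkn1a*, *Cdkn1c* and *Cdkn2b*. In the third, 1 was called with no filter (*Cdkn1c*), with only the libraries compared (*Cdkn1c*) and with adjusted p alone, where it was *Cdkn2a*, which is read as no test.

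Deviations of same-numbered libraries correlated at -0.117 to 0.126 and those of differently numbered libraries at -0.0984 to 0.117. Between CCL21+RANK- and CCL21-RANK+ libraries, same-numbered pairs were at 0.126, 0.0485 and 0.0707 and differently numbered pairs at -0.0984 to 0.0410. The deviations of the 2 CCL21-RANK- libraries mirror each other, so these values cannot decide whether replicate numbers pair the samples. With the replicate block, 1 member was called between the RANK- populations (*Trp53*, -0.59, adjusted p = 0.0273 by edgeR), *Trp53* over CCL21-RANK- was at -0.11 and *Cdkn1b* between the RANK- populations at -0.0395. With 2 CCL21-RANK- libraries, differences from that population are the least certain, and *Cdkn2a* there rests on 3 and 11 counts.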
